A study of Homo sapiens with 24 samples.

Results

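The transcripts of the epidermal growth factor receptor (EGFR) family were followed through methionine (Met) withdrawal in a pair of breast cancer cell lines. The group holds 10 genes: the receptors EGFR, ERBB2 and ERBB3, the ligands HBEGF, AREG, EREG, TGFA and BTC, and ERRFI1 and LRIG1, which restrain the receptors. They were matched by symbol in the raw count table, and all 10 were found among its 26641 gene entries and were among the 14739 that passed the filter on low counts.

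MB468 is the triple-negative breast cancer line MDA-MB-468, which is known to carry an amplified EGFR gene and needs Met to proliferate. MB468res-R8 is a clone derived from it by long culture with homocysteine (Hcy), the metabolic precursor of Met, and it proliferates without Met; it is therefore a single clone, and a difference between the lines cannot be told apart from what is particular to that clone. The 24 libraries, 3 per group, came from each line before a change of medium (0 h, in Met+ medium, where Met was at 100 µM) and 0.5, 2 and 12 h after it, in Met-Hcy+ medium, which holds DL-homocysteine at 370 µM in place of Met. All groups shared the same DMEM with dialyzed serum, vitamin B12, glutamine and cysteine. No library came from cells switched to fresh Met+ medium or kept in it for 12 h, so the loss of Met, the medium change and time in culture cannot be told apart.

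Total gene counts ran from 11712531 to 36401605 per library, with a median of 20451867. The epithelial genes of the marker list, 8 of 8, were expressed in every library, with KRT5 between 34968 and 63833 normalized counts and EPCAM between 6449.7 and 10058. PGR reached at most 2.23 normalized counts and was at 0 in 18 libraries, while ESR1 ran from 95.7 to 515. Of 8 genes of other cell types 5 passed the filter, led by the collagen gene COL1A1 at 328 to 1662, while the leukocyte genes PTPRC and CD3E stayed at or below 4.49 and 1.91. At 0 h 3 of these 5 were higher in MB468res-R8 and 0 lower, with a median of 0.59 (1 and 0, and 0.28, with spike-in scaling). At 0.5 h 3 of the 5 fell in MB468 and 2 in MB468res-R8, and at 12 h 1 rose and 1 fell, and 1 rose and 2 fell. Of the 8 epithelial genes 5 were higher and 3 lower in MB468res-R8 at 0 h, 5 rose in MB468 and 4 in MB468res-R8 at 2 h, and at 12 h 1 rose and 6 fell in MB468 and 3 rose and 4 fell in MB468res-R8. Of all genes tested, 53.6% were called at 0 h in either direction and 25.3% higher. In MB468 and MB468res-R8 the shares called in either direction were 34.1% and 33.7% at 0.5 h, 16.5% and 4.34% at 2 h, and 70.6% and 61.7% at 12 h. With spike-in scaling the epithelial counts were 0 higher and 3 lower at 0 h, 1 and 3 in MB468 and 1 and 0 in MB468res-R8 at 2 h, and 0 and 6, and 2 and 3, at 12 h. The part of both lists in the results below was not tested. Replicate 2 of MB468 at 2 h stood apart, with the noncoding RNA RN7SK at 703 CPM (counts scaled to equal library totals) against 2.58 to 10.1 elsewhere, and without it 6 members and 2090 genes were called in MB468 at 2 h, and 3 members and 663 genes for the difference between the lines at 2 h.

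EGFR, ERBB2 and ERBB3 are receptor tyrosine kinases of the cell surface. The ligands are made as membrane proteins, released by metalloproteases such as ADAM17, and bring receptors together in pairs whose tails recruit adaptors that switch on RAS and, through it, the ERK kinases. ERK in turn raises transcripts that feed back on the pathway, among them those of the ligands HBEGF, AREG and EREG and of the inhibitor ERRFI1. ERBB2 has no known ligand and ERBB3 has little kinase activity of its own, so both work mainly as partners. Triple-negative tumors, which lack hormone receptors and ERBB2 amplification, often express much EGFR.

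Values below are normalized read counts, that is counts divided by the effective library size and brought to the mean size of the 24 libraries, given for replicates 1, 2 and 3 or as mean ± SD (n = 3). A gene was called at an adjusted p under 0.05 by the quasi-likelihood test of edgeR over all 14739 genes tested, fold changes are on the log2 scale ± SE, and intervals are 95% intervals of a single gene's fold change with no adjustment. A culture gives a single value per gene, so a change in the number of expressing cells and a change in RNA per cell cannot be told apart.

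**Figure D1:**
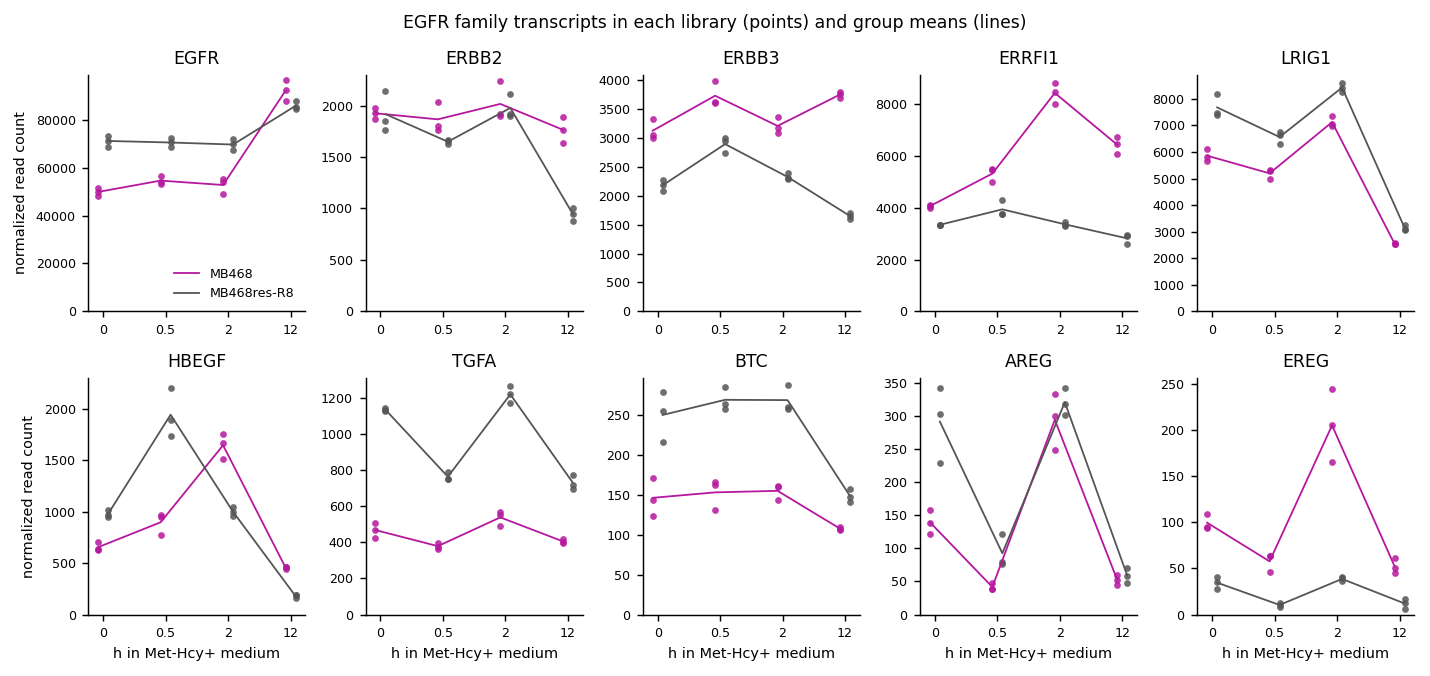
Normalized read counts (vertical axes, linear from 0) of the 10 genes in each of 24 libraries (points) against hours in Met-Hcy+ medium (horizontal axes, evenly spaced groups), with lines through the group means. HBEGF peaked at 0.5 h in MB468res-R8 and at 2 h in MB468, ERRFI1 reached 8425 in MB468 and at most 3935 in MB468res-R8 (means), and EGFR was highest at 12 h in both lines.

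In Met+ medium the lines already differed: 9 of the 10 genes were called at 0 h, 6 higher and 3 lower in MB468res-R8, beside 53.6% of all genes. In MB468, 8 genes were called at 0.5 h, 4 in each direction, beside 34.1% of all genes. At 2 h 6 were called and all were higher, beside 16.5% of all genes in either direction and 8.5% higher. Of these 6, 4 rose at least 2-fold, beside 1.69% of all genes called with a change of at least 2-fold in either direction. With spike-in scaling these 4 were still called, at 0.62 to 0.91, below 2-fold. At 12 h 9 were called, 3 higher and 6 lower, beside 70.6%. In MB468res-R8, 8 genes were called at 0.5 h, 3 higher and 5 lower, beside 33.7% of all genes. At 2 h only LRIG1 was called, beside 4.34%, and at 12 h all 10 were called, EGFR higher and the other 9 lower, beside 61.7% in either direction and 29.7% lower. With spike-in totals as library sizes the calls were 3 higher and 4 lower at 0 h, 0 and 4 in MB468 at 0.5 h, 4 and 3 at 2 h and 2 and 7 at 12 h, and 2 and 3, 0 and 0, and 0 and 8 in MB468res-R8. With that scaling the median fold change of all genes was -0.31 at 0 h and -0.20, -0.42 and -0.23 in MB468 at 0.5, 2 and 12 h, against medians of -0.01, -0.01, 0.00 and -0.02 otherwise, so a change in MB468 is relative to the other transcripts. In MB468res-R8 that median was 0.04, -0.04 and 0.00. Tested for the difference between the lines in their response, 1 member was called at 0.5 h, higher in MB468res-R8, beside 3.01% of all genes. At 2 h 3 were called, all lower in MB468res-R8, beside 5.09%, and at 12 h 7, all lower, beside 56.8% in either direction and 28.2% lower. With spike-in scaling these counts were 1, 2 and 5, in the same directions.

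Those that rose at least 2-fold in MB468 at 2 h were the ligands HBEGF, AREG and EREG and the inhibitor ERRFI1; EREG was at 0.90, below 2-fold, without replicate 2 at 2 h. Their promoters, the 250 bases before the start of transcription, are shown to place this shared rise beside the letters in front of these genes. The promoter of EGFR is added as that of a receptor, and EGFR, ERBB2 and ERBB3 did not pass the test in MB468 at 2 h. With spike-in scaling all of these receptors were called lower there, at -0.33, -0.35 and -0.37. The promoters are RefSeq windows on GRCh38.p14, found for 9 of the 10 genes and written 5′ to 3′ on the gene's own strand, with matches to any motif searched in capitals.
HBEGF promoter: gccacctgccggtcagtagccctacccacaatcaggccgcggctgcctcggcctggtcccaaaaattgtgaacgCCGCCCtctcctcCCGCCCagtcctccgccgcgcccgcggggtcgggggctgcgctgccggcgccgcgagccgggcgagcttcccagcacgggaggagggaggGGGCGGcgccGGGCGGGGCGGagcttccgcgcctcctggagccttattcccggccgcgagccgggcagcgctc
AREG promoter: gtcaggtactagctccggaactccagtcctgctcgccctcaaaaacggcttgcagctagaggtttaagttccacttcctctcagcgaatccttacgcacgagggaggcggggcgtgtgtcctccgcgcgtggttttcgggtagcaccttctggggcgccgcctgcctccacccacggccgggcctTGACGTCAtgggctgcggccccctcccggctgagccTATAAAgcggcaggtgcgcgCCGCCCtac
EREG promoter: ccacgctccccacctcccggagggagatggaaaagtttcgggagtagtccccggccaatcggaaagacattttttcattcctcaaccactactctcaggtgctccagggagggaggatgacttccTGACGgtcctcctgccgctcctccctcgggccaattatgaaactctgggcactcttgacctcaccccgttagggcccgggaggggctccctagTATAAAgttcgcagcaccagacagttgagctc
ERRFI1 promoter: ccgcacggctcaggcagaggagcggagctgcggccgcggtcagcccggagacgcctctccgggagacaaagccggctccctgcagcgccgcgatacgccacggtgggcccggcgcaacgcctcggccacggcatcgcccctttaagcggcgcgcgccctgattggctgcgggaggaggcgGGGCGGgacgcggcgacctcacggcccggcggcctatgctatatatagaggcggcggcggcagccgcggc
EGFR promoter: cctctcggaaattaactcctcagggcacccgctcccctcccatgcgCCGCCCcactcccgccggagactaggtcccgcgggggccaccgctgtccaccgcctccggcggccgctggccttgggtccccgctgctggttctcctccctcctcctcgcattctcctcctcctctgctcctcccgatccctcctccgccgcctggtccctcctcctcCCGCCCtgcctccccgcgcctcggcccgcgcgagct

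The windows lie at chr5:140346604-140346853 (minus strand) for HBEGF, chr4:74444886-74445135 (plus) for AREG, chr4:74364895-74365144 (plus) for EREG, chr1:8026310-8026559 (minus) for ERRFI1 and chr7:55018767-55019016 (plus) for EGFR. The motifs searched on both strands were TGACGTCA (the cyclic AMP response element), TGACG (its shorter form, contained in it), TGAGTCA (the AP-1 site), GGGCGG (the GC box) and TATAAA (the TATA box). AREG held the full TGACGTCA at -65 to -58, counted from -1 as the last base before the start, and 1.65% of 35116 promoter windows of this length hold it. AREG and EREG each held a TATA box, at -29 to -24 and at -32 to -27, against 10.7% of all windows. EREG held TGACG at -125 to -121, against 21.2%, and TGFA, whose window is not shown, held it at -154 to -150. HBEGF held 5 GC boxes, a pair of them sharing 1 base, EGFR 2, and AREG and ERRFI1 1 each, against 42.6% of windows with at least 1. Of the windows not shown, those of TGFA and LRIG1 also held GC boxes. None of the motifs searched was found in HBEGF, AREG, EREG and ERRFI1 alike. TGAGTCA, present in 4.2% of windows, was not among the letters of the 9 windows. The G and C content was 76.4% for HBEGF, 75.2% for ERRFI1, 73.6% for EGFR, 65.2% for AREG and 58.0% for EREG, where the median window had 58.0%. The matches are letters only; binding was not measured.

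EGFR was among the transcripts with the most reads in both lines, rose from 0 to 12 h in both, and started higher in MB468res-R8. In Met+ medium its 3 libraries stood at 49991, 51294 and 48309 in MB468, and MB468res-R8 had 68717, 73397 and 71311. All 3 libraries of MB468res-R8 were above all 3 of MB468, with a log2 difference of 0.51 ± 0.04 (SE, adjusted p = 5.59e-14), or 1.43-fold. With spike-in scaling the difference was 0.22 and was not called (adjusted p = 0.133). By mean CPM EGFR ranked 14 of the 14739 genes in MB468 and 8 in MB468res-R8, at 0.218% ± 0.00629 and 0.311% ± 0.0109 of all gene counts. CPM is not corrected for transcript length. By CPM per kb of transcript EGFR ranked 258 and 154 of the 17928 genes with a known length.

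Up to 2 h the level of EGFR changed by at most 0.13 on the log2 scale. In MB468 it was 56421, 53255 and 54071 at 0.5 h, a change of 0.13 (adjusted p = 0.0104) that turned to -0.070 with spike-in scaling. At 2 h it was 53880.4, 55349.9 and 49034, a change of 0.08 (adjusted p = 0.194) with a 95% interval of -0.00 to 0.16 (0.05 without replicate 2). With spike-in scaling the change was -0.33 and called lower (adjusted p = 0.0169), less far down than the median of all genes. In MB468res-R8 the means were 70494 ± 1797 at 0.5 h and 69648 ± 2288 at 2 h, with intervals of -0.09 to 0.07 and -0.11 to 0.05 for the changes.

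At 12 h EGFR had risen in both lines and more in MB468. There it reached 96467, 92340.0 and 87638, a change of 0.89 ± 0.04 (SE, adjusted p = 9.77e-22) or 1.85-fold. With 0.433% ± 0.0217 of all counts it ranked 1 of 14739 genes by mean CPM, and 83 of 17928 by CPM per kb of transcript. In MB468res-R8 it reached 87733, 85175 and 84500.2, a change of 0.27 ± 0.04 (SE, adjusted p = 2.68e-07). With spike-in scaling that change was the same size with a larger SE, 0.27 ± 0.12, and was not called (adjusted p = 0.0689). The difference between these rises, MB468res-R8 minus MB468, was -0.62 ± 0.06 (adjusted p = 4.85e-12; -0.41 and adjusted p = 0.0536 with spike-in scaling). At 12 h the lines overlapped, with the lowest MB468 library at 87638 and the highest of MB468res-R8 at 87733. From lowest to highest mean the groups ran MB468 at 0, 2 and 0.5 h, MB468res-R8 at 2, 0.5, 0 and 12 h, and MB468 at 12 h; neighbours overlapped except between MB468 at 0.5 h and MB468res-R8 at 2 h and between MB468res-R8 at 0 h and 12 h.

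EGFR lies on chromosome 7 at 55019017 to 55211628 of GRCh38, on the plus strand. The count table held 23 annotated genes within 2 Mb of it, and 13 were tested. In Met+ medium 11 of these were higher in MB468res-R8 and 0 lower, with a median of 0.54, beside 25.3% of all genes called higher and a median of -0.01. SEC61G, a subunit of the protein channel of the endoplasmic reticulum 259 kb away, differed by 0.54, from 14084 ± 428 to 20411 ± 113. VOPP1 and LANCL2 on the other side differed by 0.61 and 0.20 (0.32 and -0.09 with spike-in scaling), and the noncoding ELDR by 1.63. Farther out, FKBP9P1 differed by 1.41, CHCHD2 by 0.62, PSPH by 0.54, SUMF2 by 0.43, CCT6A by 0.38 and MRPS17 by 0.28. ZNF713 at 0.09 and PHKG1 at 0.32 were not called. With spike-in scaling 4 of the 13 were called higher and 0 lower, with a median of 0.24. EGFR-AS1, at 0.68, is transcribed from within EGFR on the opposite strand, and since the library kit does not mark strand its reads and those of EGFR cannot be told apart. Gene copy number was not measured in these libraries.

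**Figure D2:**
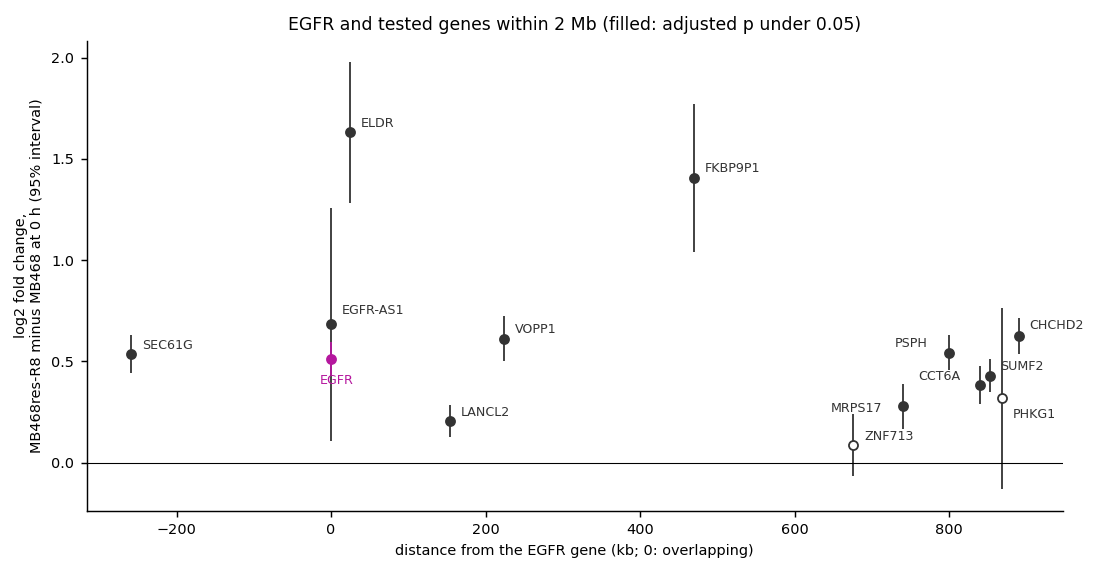
Log2 fold change of MB468res-R8 over MB468 in Met+ medium (vertical axis, bars 95% intervals) for EGFR and the 13 tested genes within 2 Mb, against distance from the EGFR gene in kb (horizontal axis). EGFR sits at 0.51 and 11 neighbours lie above 0 with filled points (adjusted p under 0.05), while ZNF713 and PHKG1 are open; with spike-in scaling 4 were called.

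At 12 h the neighbours moved in both directions. In MB468, where EGFR rose by 0.89, 4 of the 13 rose and 7 fell, with a median of -0.14 beside 70.6% of all genes called (3 and 7 with spike-in scaling). SEC61G rose by 0.22 (0.01 with spike-in scaling), while VOPP1 at -0.18 and LANCL2 at -0.14 fell. At 0.5 h LANCL2 fell by 0.94 in MB468 and by 0.67 in MB468res-R8, when EGFR changed by 0.13 and -0.01.

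ERBB2 did not pass the test between the lines in Met+ medium and fell by 12 h in MB468res-R8. At 0 h it was 1925, 1981 and 1869.9 in MB468 and 1845, 2146 and 1760.3 in MB468res-R8, with an interval of -0.15 to 0.14 for the log2 difference (-0.31, called lower at adjusted p = 0.0393, with spike-in scaling). At 12 h MB468 had 1767, 1639.8 and 1889.7, a change of -0.12 (adjusted p = 0.112), and MB468res-R8 had 1009, 883 and 947, a change of -1.02 ± 0.07 (SE, adjusted p = 1.34e-12). Every MB468res-R8 library at 12 h was below every other library of the series. The responses differed by -0.89 ± 0.10 (adjusted p = 1.25e-08). The MB468 change at 12 h was called when only its own groups were fitted (-0.12, adjusted p = 0.0259) and with spike-in scaling (-0.34). At 0.5 h MB468res-R8 had 1628, 1651 and 1666, a change of -0.22 ± 0.07 (adjusted p = 0.017), a call lost without replicate 2 at 0 h (-0.13) or replicate 1 at 0.5 h (-0.21) and with spike-in scaling.

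ERBB3, the partner receptor that couples to the PI3 kinase, was lower in MB468res-R8 in Met+ medium and moved in opposite directions by 12 h. At 0 h it was 2994, 3051 and 3337 in MB468 and 2187, 2275 and 2083 in MB468res-R8, a difference of -0.52 ± 0.05 (SE, adjusted p = 4.28e-12). Both lines rose at 0.5 h, by 0.25 and 0.41 (0.05 and not called in MB468 with spike-in scaling), and the means at 2 h, 3211 ± 139 and 2327 ± 53.0, did not pass the test against 0 h. With spike-in scaling ERBB3 was called lower in MB468 at 2 h, at -0.37. At 12 h MB468 had 3693, 3767 and 3802, a change of 0.27 (adjusted p = 2.50e-06) that was 0.05 and not called with spike-in scaling. MB468res-R8 had 1602, 1652 and 1697, a change of -0.40 ± 0.05 (adjusted p = 3.49e-09). The 12 h responses differed by -0.67 ± 0.07 (adjusted p = 3.64e-11), and at 12 h the lowest MB468 library stood at 3693 and the highest of MB468res-R8 at 1697. ERBB4, the remaining receptor, had means of 894 ± 33.9 and 934 ± 33.0 at 0 h, and at 12 h its mean was 921 ± 54.0 in MB468 and 498 ± 8.40 in MB468res-R8, a change of -0.90 ± 0.07 there.

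Levels of different genes were compared as CPM per kb of the MANE Select transcript. On this scale EGFR made up 83.7% ± 0.679 of the summed level of the 3 receptors in MB468 and 89.9% ± 0.544 in MB468res-R8 at 0 h. At 12 h its share was 89.8% ± 0.682 and 94.5% ± 0.146. Per length EGFR stood at 221 ± 6.64 in MB468 at 0 h, against 24.5 ± 1.44 for ERBB3 and 18.6 ± 0.533 for ERBB2. Among the other members, ERRFI1 at 57.6 ± 0.695 and LRIG1 at 48.0 ± 1.78 were the closest, and HBEGF led the ligands at 12.2 ± 0.806.

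HBEGF, the heparin-binding ligand, rose and returned in both lines but at different times. In MB468 it was 704, 637 and 623 at 0 h, 951, 770.4 and 970.3 at 0.5 h, 1512, 1755 and 1673 at 2 h and 445, 462 and 463 at 12 h. In MB468res-R8 it was 949.9, 1019.6 and 969 at 0 h, 2201, 1738 and 1892 at 0.5 h, 995, 1046 and 955 at 2 h and 186, 190.2 and 162 at 12 h. Thus the high libraries were those of 2 h in MB468 and of 0.5 h in MB468res-R8, and the lowest of the series were those of MB468res-R8 at 12 h.

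At 0.5 h HBEGF rose by 0.45 ± 0.08 (SE, adjusted p = 3.97e-05) in MB468 and by 0.99 ± 0.08 (SE, adjusted p = 4.29e-13) in MB468res-R8, and the rise was larger in MB468res-R8, with a difference of 0.55 ± 0.11 (adjusted p = 0.0023), beside 3.01% of all genes called for that difference. It was the only one of the 10 genes called there (6 at an unadjusted p under 0.05). With spike-in scaling the MB468 rise was 0.25 and was not called. At 2 h the rise in MB468 was 1.32 ± 0.08 (SE, adjusted p = 3.09e-15), or 2.5-fold (1.28 without replicate 2 and 0.91 with spike-in scaling, both called), and the change in MB468res-R8 had an interval of -0.12 to 0.19. The difference was -1.29 ± 0.11 (adjusted p = 1.22e-10). At 12 h HBEGF fell by 0.52 in MB468 and by 2.45 ± 0.10 in MB468res-R8, a difference of -1.93 ± 0.13 (adjusted p = 4.80e-15).

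AREG, the low-affinity ligand amphiregulin, fell at 0.5 h and at 12 h in both lines and rose at 2 h in MB468. In MB468 it was 139, 158 and 122 at 0 h, 38.6, 47.7 and 38.5 at 0.5 h, 249, 301 and 334 at 2 h and 52.1, 59.9 and 44.5 at 12 h. In MB468res-R8 it was 343, 304 and 229 at 0 h, 122, 76.1 and 79.9 at 0.5 h, 302, 343 and 318 at 2 h and 48.0, 57.6 and 70.8 at 12 h. The 2 h libraries of the lines overlapped, while at 0 h all 3 of MB468res-R8 were above MB468, by 1.06 ± 0.15 (SE, adjusted p = 2.40e-07).

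AREG changed at 0.5 h by -1.76 ± 0.19 in MB468 and by -1.64 ± 0.16 in MB468res-R8, and the interval of the difference, -0.40 to 0.63, was wide. At 2 h AREG was above 0 h by 1.06 ± 0.16 (SE, adjusted p = 2.37e-06) in MB468 (1.05 without replicate 2), while in MB468res-R8 the change had an interval of -0.16 to 0.42. The responses at 2 h differed by -0.93 ± 0.21 (adjusted p = 0.0038; -0.55 and adjusted p = 0.097 with spike-in scaling), beside 5.09% of all genes called for that difference. At 12 h the changes were -1.45 and -2.32, and they differed by -0.87 ± 0.25 (adjusted p = 0.00305).

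EREG, epiregulin, is encoded next to AREG and was the scarcest of the 10 transcripts per length. In MB468 it was 109, 93.9 and 95.1 at 0 h, 63.1, 63.3 and 46.2 at 0.5 h, 165, 244 and 205 at 2 h and 45.4, 61.0 and 50.8 at 12 h. In MB468res-R8 it was 40.3, 27.9 and 35.3 at 0 h, 10.5, 12.1 and 8.60 at 0.5 h, 40.5, 36.0 and 39.1 at 2 h and 6.34, 17.3 and 12.4 at 12 h, below MB468 at every time. At 0 h, where AREG was higher in MB468res-R8, EREG was lower, with a difference of -1.51 ± 0.21 (SE, adjusted p = 7.40e-08).

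EREG changed in MB468 by -0.76 at 0.5 h, 1.03 ± 0.18 (SE, adjusted p = 4.25e-05) at 2 h (0.90 without replicate 2) and -0.94 at 12 h. In MB468res-R8 it changed by -1.73 at 0.5 h and -1.57 at 12 h, while the change at 2 h had an interval of -0.33 to 0.60. The difference between the lines at 2 h was -0.90 ± 0.29 and missed the threshold (adjusted p = 0.0687); it passed without replicate 1 of MB468 at 2 h (-1.04, adjusted p = 0.0333) and without replicate 2 of MB468res-R8 at 0 h (-1.03, adjusted p = 0.0448). The 6 libraries of MB468res-R8 at 0.5 and 12 h held 7 to 15 counts of EREG each.

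TGFA, transforming growth factor alpha, was high in MB468res-R8 throughout. At 0 h it was 426, 469 and 509.7 in MB468 and 1131, 1147 and 1127 in MB468res-R8, a difference of 1.29 ± 0.07 (SE, adjusted p = 1.34e-19) or 2.44-fold. At 0.5 h both lines fell, to 377, 396 and 364 in MB468 and to 789, 749 and 752 in MB468res-R8. By 2 h MB468 stood at 570.4, 491 and 554, a rise of 0.22 (adjusted p = 0.0341) that ended without a low-count filter, when only its own groups were fitted, and without replicates 1 or 2 at 0 h or 1 or 3 at 2 h (0.16 to 0.22), and that turned to -0.21 with spike-in scaling; without replicate 2 at 2 h it was 0.28 and called. At 12 h MB468 had 397, 417 and 403 and MB468res-R8 698, 776 and 717. The changes were -0.20, a call lost without replicate 3 at 0 h (-0.12) or replicate 1 at 12 h (-0.17), and -0.64 ± 0.06, and they differed by -0.44 ± 0.09 (adjusted p = 0.000138; -0.21 and not called with spike-in scaling).

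BTC, betacellulin, passed the test against 0 h at 12 h and not before. It was 171, 143 and 124 in MB468 and 254, 216 and 279 in MB468res-R8 at 0 h, a difference of 0.76 ± 0.12 (SE, adjusted p = 5.66e-07). At 0.5 and 2 h it did not pass the test in either line, with 130.9 to 165 normalized counts in the 6 libraries of MB468 and 257 to 287 in those of MB468res-R8. At 12 h it fell to 105, 107 and 109.8 in MB468, a change of -0.46 ± 0.12, and to 140.3, 157 and 147 in MB468res-R8, a change of -0.75 ± 0.12. The interval of the difference between these falls was -0.64 to 0.04.

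EREG, AREG and BTC lie on chromosome 4 between 74365145 and 74794523 of GRCh38. EPGN, which encodes the ligand epigen, lies outside this stretch at 74308470 to 74316789, 48.4 kb from EREG. EPGN, a transcript of the list of other receptors and ligands, showed the largest difference of the locus at 0 h, 51.0 ± 7.67 in MB468 and 760.3 ± 96.7 in MB468res-R8, a log2 difference of 3.93 ± 0.16 (3.62 with spike-in scaling). At 0.5 h it fell by 2.70 in MB468 and by 2.89 in MB468res-R8, in the direction of AREG and EREG, and BTC did not pass the test. In MB468 at 2 h EPGN was at 56.1 ± 18.3 and not called, where AREG and EREG were. Of the other ligands, NRG1 and NRG3 had 0 counts in all 24 libraries, NRG4 averaged at most 4.5 normalized counts, and EGF fell by 1.13 in MB468 and by 0.40 in MB468res-R8 at 12 h.

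Per length, the 5 ligands summed to 25.5 ± 1.09 CPM per kb in MB468 at 0 h, 25.3 ± 1.49 at 0.5 h, 51.4 ± 3.76 at 2 h and 17.0 ± 0.514 at 12 h. In MB468res-R8 the sums were 45.2 ± 1.79, 52.2 ± 5.50, 47.9 ± 1.70 and 15.8 ± 0.819. The 2 h sums of the lines overlapped. EPGN, not a member of the group and far higher in MB468res-R8 at 0 h, is not in these sums or in the shares below. HBEGF made up 47.8% ± 1.73 of the sum in MB468 at 0 h and 65.9% ± 4.6 at 0.5 h, while AREG went from 19.5% ± 2.11 to 5.90% ± 1.13. HBEGF in MB468res-R8 went from 40.4% ± 2.09 at 0 h to 69.3% ± 1.11 at 0.5 h and 21.2% ± 1.97 at 12 h, when TGFA held 49.3% ± 0.633.

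**Figure D3:**
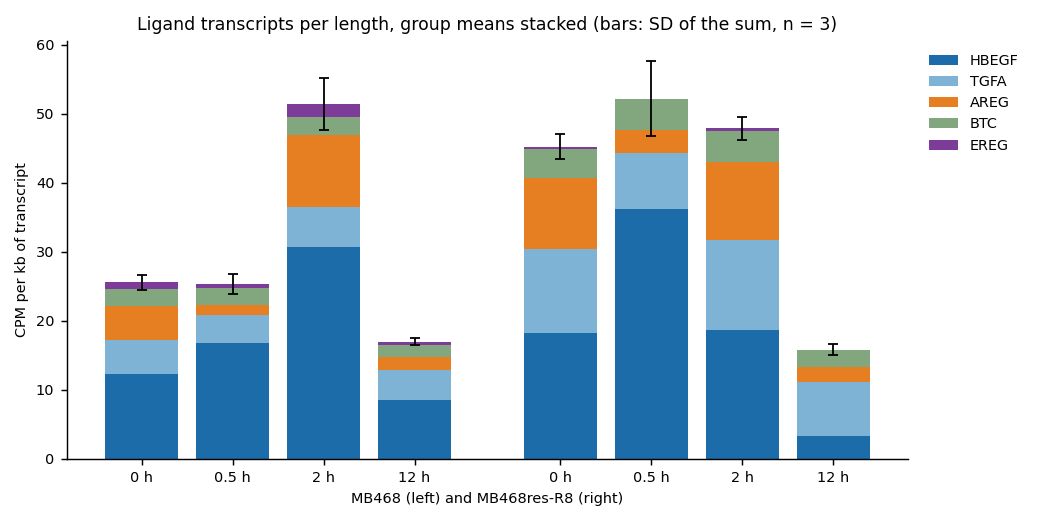
Summed level of the 5 ligand transcripts in CPM per kb of transcript (vertical axis), stacked by gene as group means for MB468 (left 4 bars) and MB468res-R8 (right 4 bars) by hours in Met-Hcy+ medium; error bars are the SD of the sum over 3 libraries. The MB468 sum was 25.5 at 0 h and 51.4 at 2 h, the MB468res-R8 sum 45.2 and 47.9, and both were lowest at 12 h. EPGN is not in the sums.

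ERRFI1, also known as MIG6, binds the kinase domain of EGFR and blocks it. In MB468 it was 4066, 4102 and 4005 at 0 h, 5459.7, 4999 and 5485 at 0.5 h, 7987, 8825 and 8464 at 2 h and 6463, 6729 and 6082 at 12 h. In MB468res-R8 it was 3344, 3323 and 3351 at 0 h, 4308, 3759.9 and 3737 at 0.5 h, 3330.0, 3309 and 3438 at 2 h and 2598, 2947 and 2898 at 12 h. Every MB468 library after the switch was above every library of MB468res-R8, and at 0 h the lines differed by -0.28 ± 0.05 (SE, adjusted p = 1.22e-05).

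ERRFI1 rose in MB468 by 0.39 at 0.5 h (0.19 and not called with spike-in scaling), 1.05 ± 0.05 (SE, adjusted p = 4.53e-19) at 2 h (1.02 without replicate 2, 0.64 with spike-in scaling) and 0.66 ± 0.05 at 12 h. In MB468res-R8 it rose by 0.24 ± 0.05 at 0.5 h, changed within an interval of -0.10 to 0.11 at 2 h and fell by 0.25 ± 0.05 at 12 h; the 0.5 and 12 h changes were not called with spike-in scaling. The responses differed by -1.05 ± 0.07 at 2 h (adjusted p = 8.08e-14) and by -0.91 ± 0.07 at 12 h (adjusted p = 1.18e-13), while at 0.5 h the interval of the difference was -0.29 to -0.00 (adjusted p = 0.347).

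LRIG1, a membrane protein that promotes the breakdown of the receptors, fell at 12 h in both lines. At 0 h it was 6099, 5802 and 5675 in MB468 and 8174, 7469 and 7389 in MB468res-R8, a difference of 0.39 ± 0.04 (SE, adjusted p = 9.94e-11) that was 0.09 and not called with spike-in scaling. At 12 h it was 2573, 2549 and 2541 in MB468 and 3259, 3118 and 3073 in MB468res-R8. The changes were -1.20 ± 0.04 and -1.29 ± 0.04, and the interval of their difference was -0.21 to 0.03; that difference was called in 4 of the 12 fits that left out a library, at -0.15 to -0.16: without replicate 1 of MB468 at 0 h, replicates 2 and 3 of MB468res-R8 at 0 h and its replicate 1 at 12 h. Earlier it changed at 0.5 h by -0.17 in MB468 and -0.23 in MB468res-R8 (-0.18 and not called there with spike-in scaling) and stood above 0 h at 2 h, by 0.28 in MB468 (0.30 without replicate 2, and -0.13 and not called with spike-in scaling). In MB468res-R8 the 2 h value of 0.13 (adjusted p = 0.0471) was the only call of the group and was lost, at 0.11 to 0.15, without any of the 6 libraries other than replicate 1 at 0 h.

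**Figure D4:**
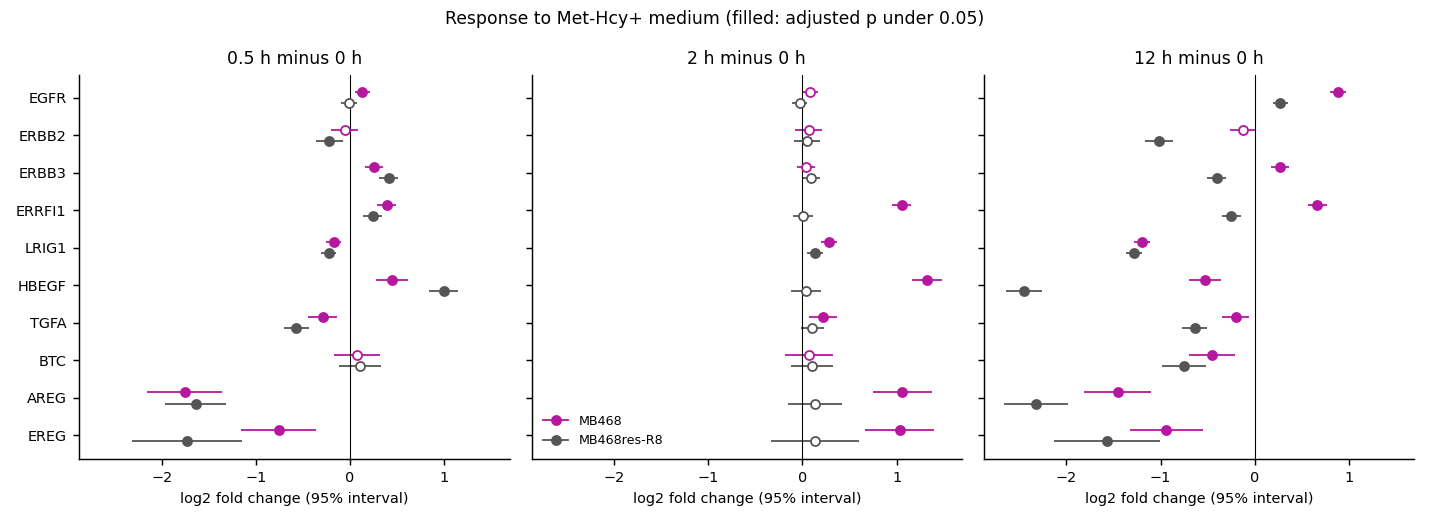
Log2 fold change against 0 h (horizontal axes, bars 95% intervals) of the 10 genes at 0.5, 2 and 12 h in Met-Hcy+ medium, for MB468 (magenta) and MB468res-R8 (gray); filled points passed an adjusted p of 0.05. At 2 h HBEGF, ERRFI1, AREG and EREG lie between 1.03 and 1.32 in MB468 while their MB468res-R8 intervals include 0; TGFA and LRIG1, also filled in MB468, turn to -0.21 and -0.13 with spike-in scaling.

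The list of proteases that release the ligands, with the partners of these enzymes, had 8 genes. At 2 h, when ligand transcripts were high in MB468, 0 of the 8 were called in either line by edgeR, with changes of -0.10 to 0.05 in MB468 and of -0.13 to 0.10 in MB468res-R8 (with spike-in scaling 7 of the 8 were lower in MB468, at a median of -0.45 beside -0.42 for all genes). In Met+ medium 4 were higher in MB468res-R8 and 1 lower, beside 53.6% of all genes called, among them ADAM10 by 0.70, ADAM9 by 0.43 and ADAM12 by 1.40 (2 higher and 2 lower with spike-in scaling, ADAM9 not called). At 12 h ADAM17, the main sheddase of AREG, TGFA and HBEGF, rose by 0.25 in MB468 and fell by 0.27 in MB468res-R8, a difference of -0.52 (adjusted p = 1.96e-09) that was -0.30 with spike-in scaling, where neither change nor their difference was called. RHBDF1, which carries ADAM17 to the surface, fell by 0.92 and by 0.79.

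Among 21 adaptors and kinases of the pathway, 7 rose and 1 fell at 0.5 h in each line, beside 34.1% and 33.7% of all genes called (2 and 1 in MB468 and 5 and 0 in MB468res-R8 with spike-in scaling). SOS1, the exchange factor that loads RAS, rose by 0.56 and 0.60, and PIK3R1, the regulatory subunit of the PI3 kinase, by 0.73 and 0.72. At 2 h PIK3R1 rose by 0.42 in MB468 and fell by 0.38 in MB468res-R8, the only gene of the list called for the difference, at -0.80 (adjusted p = 2.08e-07). With spike-in scaling PIK3R1 at 2 h was called in neither line nor for the difference (-0.41). At 12 h 5 rose and 10 fell in MB468 and 8 rose and 5 fell in MB468res-R8, beside 70.6% and 61.7% of all genes called (2 and 11, and 1 and 2, with spike-in scaling). STAT3 fell by 0.78 and 0.21 (not called in MB468res-R8 with spike-in scaling) and MAPK3 by 0.83 and 0.63.

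The list of other genes of receptor down-regulation had 12 members, 11 of them in the table and tested. At 0 h 2 were higher and 7 lower in MB468res-R8, beside 53.6% of all genes called (0 and 8 with spike-in scaling), among them the phosphatase PTPRJ at -0.47 and the ubiquitin ligase CBL at -0.37. LRIG3, a relative of LRIG1, rose where LRIG1 fell: by 0.93 in MB468 and 0.76 in MB468res-R8 at 12 h. CBLB rose by 1.03 in MB468 and fell by 0.47 in MB468res-R8 at 12 h, a difference of -1.5 (adjusted p = 3.49e-11). At 2 h 0 of the 11 were called in MB468res-R8 by edgeR and 2 in MB468, beside 4.34% and 16.5% of all genes, LRIG2 at -0.44 and USP8 at 0.15 (-0.85 and -0.27 with spike-in scaling, where 10 of the 11 were lower).

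A list of 14 transcripts raised by ERK signaling, none of them a member of the family, was set beside the ligands. It was chosen with earlier results of these data known. At 0.5 h 6 rose and 4 fell in MB468 and 7 and 2 in MB468res-R8, beside 34.1% and 33.7% of all genes called. With spike-in scaling these counts were 3 and 4, and 6 and 2. The difference between the lines at 0.5 h was called for 3 higher and 1 lower, beside 3.01% of all genes (0 and 0 with spike-in scaling). At 2 h 11 rose and 0 fell in MB468, with a median of 0.77 beside 0.00 for all genes, of which 16.5% were called and 8.5% called higher. In MB468res-R8 4 rose and 2 fell, with a median of 0.02, beside 4.34% of all genes called. For the difference between the lines at 2 h 9 were lower in MB468res-R8 and 0 higher, beside 5.09% of all genes called in either direction, and EREG, AREG, ERRFI1 and HBEGF had differences from -0.90 to -1.29. With spike-in scaling 6 rose and 3 fell in MB468 at 2 h, 1 rose and 1 fell in MB468res-R8, and EGR1 alone was called for the difference. EGR1, an early response transcription factor, went from 949 ± 65.7 at 0 h to 29629 ± 2498, 12842 ± 272 and 4161 ± 256 in MB468, and from 977 ± 97.1 to 18922 ± 1254, 649.8 ± 47.6 and 221 ± 61.1 in MB468res-R8. The phosphatase DUSP5 and MYC rose at 2 h by 1.37 and 1.12 in MB468 and by 0.53 and 0.32 in MB468res-R8 (MYC not called there with spike-in scaling). PHLDA1 fell at 0.5 h by 1.27 and 1.14, as AREG and EREG did, and rose in MB468 at 2 h by 0.58 (0.16 and not called with spike-in scaling). At 12 h 7 of the 14 rose and 3 fell in MB468, and 4 rose and 9 fell in MB468res-R8, beside 70.6% and 61.7% of all genes called (3 and 4, and 3 and 6, with spike-in scaling). Kinase activity itself was not measured.

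**Figure D5:**
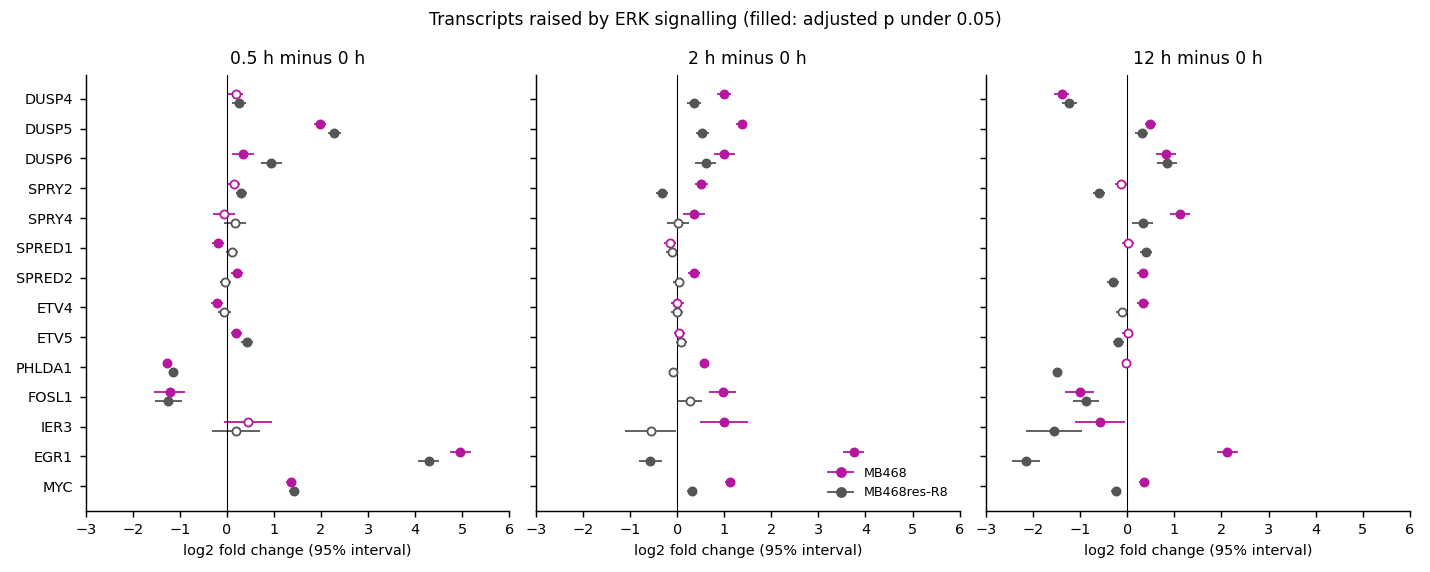
Log2 fold change against 0 h (horizontal axes, bars 95% intervals) of 14 transcripts raised by ERK signaling at 0.5, 2 and 12 h in MB468 (magenta) and MB468res-R8 (gray), filled where the adjusted p was under 0.05. At 0.5 h EGR1 is far to the right in both lines (4.96 and 4.28), and at 2 h the magenta point is at 3.75 and the gray one at -0.57; with spike-in scaling 6 rather than 11 rose in MB468 at 2 h.

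Across the 24 libraries the genes whose log2 CPM was most like that of EGFR, among 9874 genes with a mean of at least 3, were USP25 (Pearson r = 0.965), USP6NL (0.963) and LOC646762 (0.963). Those most like AREG were CREB5 (0.952), KIAA0513 (0.947) and CRISPLD2 (0.947), and those most like HBEGF were NR4A1 (0.941), PRKCE (0.925) and CLDN4 (0.923). The libraries fall into 8 groups that share their medium and line, so these correlations describe the pattern over groups and carry no p.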

How the data were processed

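Poly(A) RNA of 24 libraries with ERCC spike-ins was sequenced as single-end reads. Per the study's methods, the authors aligned reads with HISAT2 to GRCh38/hg38 together with the ERCC sequences and deposited raw counts per gene from featureCounts. The submitters' processing notes give the versions as HISAT2 2.1.0 and Subread 1.5.3. The annotation release and strand setting are not given in the sources used here. The authors' normalized counts and their table of fold changes and p-values from their own comparison were not used.

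Of the deposited rows 26641 genes and 92 spike-ins entered, and 4 repeated symbols were left out. Library totals of 11712531 to 36401605 counts limit precision most for EREG and AREG. No pair of libraries held identical values. Nothing in the labels says that replicates are separate cultures, so p-values measure only the spread between these samples.

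Genes were kept by filterByExpr (minimum count 10, minimum total 15), scaled by TMM and tested in edgeR 4.0.16 (R 4.3.3, limma 3.58.1) with robust quasi-likelihood fits, 1 mean per group over the 24 libraries and Benjamini-Hochberg adjustment over 14739 genes. Intervals are 95%. The code was tested on simulated data. Alternatives were DESeq2 1.42.0 (size factors and Wald test), spike-in totals, other filters and thresholds, a replicate block, fits of only the groups compared, and leaving out each library.

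The members and lists were chosen with earlier results of these data known. Of each pathway list, up to 4 genes per comparison with the smallest adjusted p could be named, with the tested neighbours of EGFR within 2 Mb and the 3 genes most like EGFR, AREG and HBEGF. Receptor and ligand sums, and further genes, were chosen after their values were seen. Promoter windows are from RefSeq (GRCh38.p14).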

Additional observations from a re-analysis of the deposited data

Results flagged for a closer look

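The effect of the same change of medium differed between the lines, by the interaction contrast of the edgeR fit (MB468res-R8 minus MB468, log2 scale ± SE, 3 libraries per group), for 11 pairs of gene and time. At 0.5 h the response of HBEGF was larger in MB468res-R8 by 0.55 ± 0.11 (SE, adjusted p = 0.0023). At 2 h the responses of HBEGF at -1.29 ± 0.11, ERRFI1 at -1.05 ± 0.07 and AREG at -0.93 ± 0.21 were lower in MB468res-R8, and in each case MB468 had risen while the MB468res-R8 interval included 0. Without replicate 2 of MB468 at 2 h these values were -1.24, -1.01 and -0.92. With spike-in scaling AREG was no longer called (-0.55). HBEGF thus differed in opposite directions at 0.5 and 2 h.

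At 12 h the responses of 7 genes were lower in MB468res-R8. They were HBEGF at -1.93 ± 0.13, ERRFI1 at -0.91 ± 0.07, ERBB2 at -0.89 ± 0.10, AREG at -0.87 ± 0.25, ERBB3 at -0.67 ± 0.07, EGFR at -0.62 ± 0.06 and TGFA at -0.44 ± 0.09. EREG at -0.63 ± 0.34, BTC at -0.30 ± 0.17 and LRIG1 at -0.09 ± 0.06 were negative and did not pass the test. With spike-in scaling EGFR (-0.41) and TGFA (-0.21) were not called. ERBB3 and ERRFI1 rose in MB468 and fell in MB468res-R8 (with spike-in scaling the rise of ERBB3, at 0.05, and the fall of ERRFI1 were not called). LRIG1 turned to 0.12 with spike-in scaling and was not called. Of all genes, 28.2% were called lower in the same contrast.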

How the results depend on the processing

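Direction was compared only where either fit called the gene. Of 100 member results, 100 kept their call, and their direction where compared, with the DESeq2 Wald test. The same held for 99 each with DESeq2 size factors and without a low-count filter, 97 with only the groups compared and 95 at an adjusted p under 0.01. It held for 76 with spike-in scaling, for 90 of 90 with at least 10 counts in every library and for 756 of 780 with a library left out. Spike-in scaling shifts the median of all genes in MB468, and 6 results called in either fit reversed with it. EGFR turned to -0.070 in MB468 at 0.5 h, and at 2 h EGFR turned to -0.33, ERBB2 to -0.35, ERBB3 to -0.37, TGFA to -0.21 and LRIG1 to -0.13. Results called in neither fit could also change sign with that scaling, as BTC did in MB468 at 2 h, from 0.07 to -0.35. That scaling gave 3287 called genes and 4 members in MB468 at 0.5 h, 9509 genes at 2 h, 2022 genes and 5 members in MB468res-R8 at 0.5 h, 180 genes and 0 members at 2 h, 5884 genes at 12 h, and 101 genes for the difference at 0.5 h. The cause of the spike-in shift was not tested. Spike-in scaling also gave larger SEs, for EGFR in MB468res-R8 at 12 h 0.12 against 0.04, so a lost call need not mean a smaller change. An adjusted p under 0.01 left 1572 genes in MB468 at 2 h, 391 genes and 0 members in MB468res-R8 at 2 h, and 237 and 431 genes for the differences at 0.5 and 2 h. The members called in MB468res-R8 at 2 h were also 0 with DESeq2 size factors and with only the groups compared (1 at an unadjusted p under 0.05). With a library left out, the genes called for the difference at 0.5 h ranged from 285 (without replicate 1 of MB468res-R8 at 0 h) to 455, those of MB468res-R8 at 2 h from 346 (without its replicate 2) to 671, with 419 without replicate 3 at 0 h, and members there from 0 to 1. EGFR in MB468 at 0.5 h was not called without replicate 1 (0.11), and was called at 2 h without replicate 3 (0.14). The differences at 12 h for EREG were called without replicate 2 of MB468res-R8 at 12 h (-0.99), and for BTC without replicate 1 of MB468 at 0 h (-0.47) or replicate 2 of MB468res-R8 at 0 h (-0.43).

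The labels do not say that a replicate number marks a shared culture or day. Correlations of same-numbered libraries ran from -0.50 to 0.51 (mean -0.02, against 0.01 for different numbers). They were highest for MB468res-R8 at 2 h against 0 h, at -0.03 to 0.47 with a mean of 0.28, and in none of the 7 comparisons with 0 h or between the lines was every pair above 0.1. The numbers were therefore treated as names, and the replicate block called 6 members and 2346 genes in MB468 at 2 h and changed no call of 100. EREG and AREG have the fewest counts, and differences within their intervals were not detectable at this depth.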

Other observations

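Among the transcripts raised by ERK signaling, several encode inhibitors of the pathway itself. DUSP4, a phosphatase of ERK, went from 3810.1 ± 91.4 normalized counts at 0 h to 1449 ± 50.9 at 12 h in MB468 with a change of -1.40 (adjusted p = 4.36e-13) and from 6472 ± 675 to 2759 ± 96.9 in MB468res-R8 with a change of -1.23 (adjusted p = 4.41e-12). DUSP6, the cytoplasmic phosphatase of ERK, differed between the lines in its 0.5 h response by 0.61 (adjusted p = 0.0213), a call lost with spike-in scaling (0.83, adjusted p = 0.0764). SPRY4 changed at 12 h by 1.11 in MB468 and by 0.33 in MB468res-R8 (0.34 and not called there with spike-in scaling). SPRY2 changed by -0.13, which was not called, and by -0.61, and its 2 h responses differed between the lines by -0.84 (adjusted p = 2.37e-08), a call lost with spike-in scaling (-0.48, adjusted p = 0.0748).

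Among genes of receptor down-regulation, RNF41, the ubiquitin ligase of ERBB3, changed at 0.5 h by 0.48 (adjusted p = 4.44e-10) in MB468 (0.28 and not called with spike-in scaling) and by 0.53 (adjusted p = 8.40e-11) in MB468res-R8, when ERBB3 rose by 0.25 and 0.41. At 12 h PTPN1, a phosphatase of EGFR, changed by -0.61 in MB468 and by -0.18 in MB468res-R8 (not called there with spike-in scaling), a difference of 0.43 (adjusted p = 2.35e-07). NRG2, a ligand of ERBB3 and ERBB4, was scarce, and was lower in MB468res-R8 at 0 h with a difference of -1.14 (adjusted p = 0.00205). ESR1 fell at 12 h by 0.20 in MB468 and by 1.09 in MB468res-R8, a difference of -0.88 (adjusted p = 2.56e-06), beside the fall of ERBB2 in MB468res-R8. Whether these changes are related was not tested.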
